A study of Mus musculus with 20 samples.

Results

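Dtx1 and 9 other genes of the Notch pathway were followed in mouse regulatory T cells (Tregs) and CD8+ T cells given IL-2 or its partial agonist IL-2-REH. The group was defined by gene symbol, as Dtx1, Dtx2, Dtx3, Dtx4, Notch1, Notch2, Hes1, Nrarp, Rbpj and Maml1, which are 10 of the 23992 symbols in the data, and where a symbol had several transcripts, the one with the largest total of reads was used. All 10 were found. The group was put together with results of these data in view, namely the loss of Dtx1 RNA at 4 hr with IL-2 in Tregs and with either cytokine in CD8+ T cells, so these changes of Dtx1 are described here and support nothing.

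Tregs, the suppressive CD4+ T cells marked by Foxp3, were isolated by their GFP from B6-Foxp3EGFP reporter mice, and CD8+ T cells were purified with a kit from C57BL/6J mice, all from spleen and lymph node. The labels name the strain of every sample as C57BL/6N, and they give no age. Both cell types were either left unstimulated, at 0 hr, or given 200 nM IL-2 or 200 nM IL-2-REH for 90 min or 4 hr. IL-2-REH is an IL-2 mutein that recruits the common gamma chain of the receptor less well. Each of the 5 Treg groups had 3 libraries, numbered 1 to 3, and each of the 5 CD8+ groups had 1. How many animals stand behind a library, and whether replicates came from separate cultures, is not given in the sources used here, so the p-values measure the spread between these libraries, which may be technical. Because the unstimulated cells were taken at 0 hr, the cytokine and the time in culture cannot be told apart in any comparison with them, whereas the cytokines can be compared at a given time without this limit.

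In the Notch pathway, a ligand on a neighbouring cell leads to cleavage of the receptor, and the freed intracellular part enters the nucleus, joins the DNA-binding protein RBPJ and a coactivator of the Mastermind family, and turns on target genes such as Hes1, Nrarp and Dtx1. The Deltex proteins are E3 ubiquitin ligases named after a regulator of Notch in the fly. In T cells, Notch1 is known for directing progenitors to the T lineage, and Dtx1 is known as a gene that NFAT induces in T cells that have become anergic.

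The cell types matched their labels. The 7 Treg markers summed to between 850 and 1508 RPKM in Tregs and between 38.7 and 93.3 RPKM in CD8+ T cells, where RPKM is the number of reads scaled to exon length and library depth. The 6 CD8+ markers summed to between 618 and 1513 RPKM in CD8+ T cells and between 171 and 565 in Tregs, where Cd3e and Cd3g, which all T cells express, carried most of it. Reads on genes ranged from 20201392 to 63903764 over the 15 Treg libraries and from 38201667 to 45189835 over the 5 CD8+ libraries. The unstimulated Treg library of replicate 1 stood apart from the other two. Its Dtx1 level was 3.24 RPKM against 62.7 and 42.4, its Notch1 level 13.1 against 33.8 and 29.5, and its Dtx3 level 16.1 against 34.4 and 29.6. Replicate 1 was also the lowest of the 3 in all 5 Treg groups for Dtx1, Dtx3 and Notch1, so for the 10 genes values without replicate 1 are given where this changed a call.

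Dtx1 had lower RNA levels after either cytokine than before in every Treg replicate and in CD8+ T cells, already at 90 min. In unstimulated Tregs, replicates 1, 2 and 3 had 3.24, 62.7 and 42.4 RPKM, from 747, 16989 and 9572 reads. After 90 min it was 1.44, 8.23 and 5.10 after IL-2 and 1.31, 9.41 and 5.76 after IL-2-REH, in the same order of replicates. After 4 hr it was 1.03, 1.29 and 1.51 after IL-2 and 0.802, 1.36 and 1.50 after IL-2-REH. In each replicate, all 4 cytokine libraries lay below the unstimulated one, and in each both 4 hr libraries lay below both 90 min libraries. Between groups, the ranges of unstimulated cells and of cells at 90 min overlapped through the low unstimulated library of replicate 1. By 4 hr the 3 replicates had come within 0.802 to 1.51 RPKM.

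The fold sizes show how much replicate 1 differed. From unstimulated to 90 min of IL-2, Dtx1 was 7.62-fold lower in replicate 2 and 8.31-fold lower in replicate 3, and less so in replicate 1 (3.24 against 1.44 RPKM). To 4 hr it was 3.15-fold, 48.6-fold and 28.1-fold lower in replicates 1, 2 and 3. In CD8+ T cells, the RPKM of Dtx1 was 50.6 without stimulation (11553 reads), 3.81 after IL-2 and 3.50 after IL-2-REH at 90 min, and 3.12 and 2.85 at 4 hr. The CD8+ decline was thus 13.3-fold for IL-2 and 14.5-fold for IL-2-REH at 90 min, and a further 1.22-fold and 1.23-fold from 90 min to 4 hr. In Tregs of replicates 2 and 3, that later step was 6.39-fold and 3.38-fold under IL-2 and 6.91-fold and 3.83-fold under IL-2-REH. The CD8+ libraries have no replicates, so the difference between the cell types was not tested. In bulk RNA, fewer cells with Dtx1 and less Dtx1 RNA per cell cannot be told apart.

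**Figure D1:**
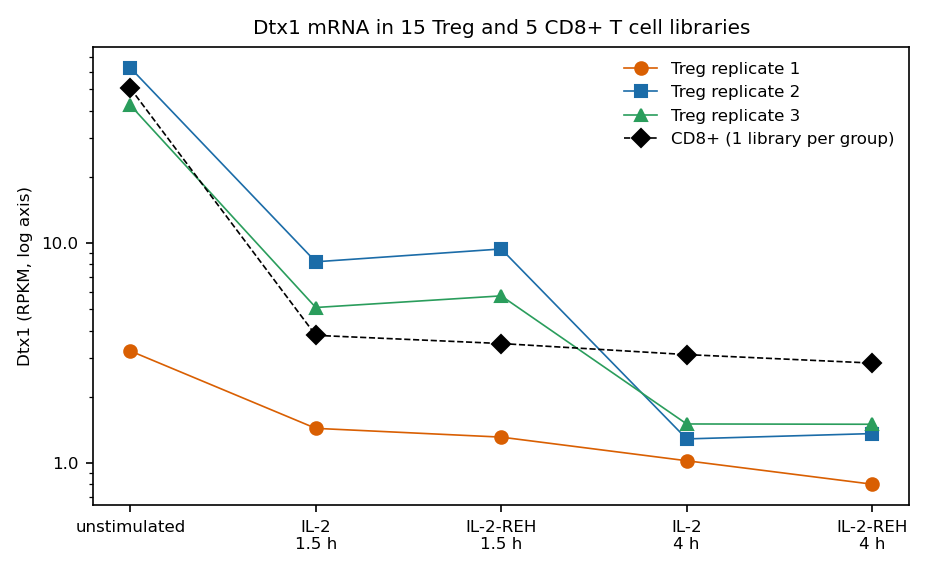
RPKM of Dtx1 (log axis) in every library against the 5 conditions, with a line for each Treg replicate and a dashed line for the single CD8+ library of each condition. Treg replicates 2 and 3 and the CD8+ cells start between 42.4 and 62.7 RPKM, replicate 1 starts at 3.24, and all Treg libraries are at or below 1.51 RPKM at 4 hr.

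In GRCm38, Dtx1 (NM_008052) spans 120680203 to 120711867 of chromosome 5, minus strand, and its exons overlap those of no other gene in the annotation used. The window around its annotated start is shown because its fold changes were the widest of the 10 genes. It covers chr5:120711620-120711919, from 250 bases before to 50 bases after the start in the RefSeq annotation of GRCm38.p6, and is written on the gene's strand. This start lies inside the annotated span of the gene and not at its 5′ end. Where NM_008052 itself starts was not looked up. None of the 4 motifs searched on both strands occurs in it, which says only that these letters are not in this window. They were TGGGAA for RBPJ, TTCNNNGAA for STAT5, TGTTTAC for FOXO proteins and GGAAA for NFAT. Of 32851 such windows of all genes, 25.6% hold TGGGAA, 8.3% TTCNNNGAA, 3.65% TGTTTAC and 61.3% GGAAA.
Dtx1: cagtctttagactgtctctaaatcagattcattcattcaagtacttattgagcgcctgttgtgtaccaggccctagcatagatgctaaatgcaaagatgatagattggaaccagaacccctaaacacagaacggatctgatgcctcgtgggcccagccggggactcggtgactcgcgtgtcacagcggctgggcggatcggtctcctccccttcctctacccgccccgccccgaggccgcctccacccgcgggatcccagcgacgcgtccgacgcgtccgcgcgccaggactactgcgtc

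For the tests, read counts of the 15 Treg libraries were fitted with edgeR's quasi-likelihood test over 15009 genes, among them all 10 members, with p-values adjusted by the Benjamini-Hochberg method over all genes. At 4 hr of IL-2, the comparison that chose Dtx1, its log2 fold change was -4.66 with a standard error of 0.98. The other comparisons with unstimulated cells share the unstimulated libraries with it, so their values are also given as a description. The log2 fold change was -4.79 ± 0.98 (SE) at 4 hr of IL-2-REH, -2.58 ± 0.88 (SE) at 90 min of IL-2 and -2.43 ± 0.88 (SE) at 90 min of IL-2-REH. With the replicate number as a block, these 3 values were -4.26, -2.43 and -2.32, and without replicate 1 they were -5.10, -2.67 and -2.50.

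The step from 90 min to 4 hr of IL-2-REH uses no library from the comparison that chose Dtx1 in Tregs. It is still not fully independent of that choice, since the spread was estimated over all 15 libraries. Same-numbered 4 hr libraries of the 2 cytokines also deviated together across genes (r = 0.793, 0.763 and 0.372). In this step, the log2 fold change of Dtx1 was -2.36 ± 0.89 (SE, adjusted p = 0.28 from edgeR), lower at 4 hr in 3 of 3 replicates. Without replicate 1, it was -2.60 ± 0.30 (SE, adjusted p = 0.014 from edgeR). Without replicate 2 or without replicate 3, no gene passed in this step. The same step with IL-2, which does use the 4 hr IL-2 libraries and is given as a description, was -2.08 ± 0.88 (SE), and -2.41 ± 0.30 (SE) without replicate 1. No difference in Dtx1 between the cytokines was detected. IL-2-REH minus IL-2 was 0.15 at 90 min (approximate 95% interval -1.49 to 1.79) and -0.13 at 4 hr (-1.81 to 1.55). These intervals reach past 2-fold either way, but they come from the fit without the block and include the spread between replicates. Within replicates 1, 2 and 3, IL-2-REH over IL-2 was 0.912, 1.14 and 1.13 at 90 min. At 4 hr it was 0.782, 1.06 and 0.997. The CD8+ pair had 0.918 at 90 min and 0.915 at 4 hr.

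Markers of B cells, myeloid cells and erythroid cells are given beside Dtx1. In unstimulated Tregs, 9 B cell markers summed to 3.32, 10.1 and 22.0 RPKM in replicates 1, 2 and 3, and 7 myeloid markers to 18.8, 71.8 and 60.8 RPKM. Of these 3 libraries, the one with the least Dtx1 thus also had the lowest sums. At 4 hr of IL-2-REH, the B cell sum was 4.58, 4.72 and 20.3 RPKM and the myeloid sum 13.6, 40.4 and 38.7 RPKM. In replicate 3, the B cell sum was thus 20.3 against 22.0 RPKM while Dtx1 went from 42.4 to 1.50 RPKM, and at 4 hr of IL-2 the sum was 9.33 RPKM. The myeloid sum went from 60.8 to 38.7 in the same pair, and no B cell, myeloid or erythroid marker passed edgeR's test in a comparison with unstimulated cells. With the replicate number as a block, 5 of 7 myeloid markers passed as lower at 4 hr of IL-2, 1 (Csf1r) at 4 hr of IL-2-REH, and the B cell marker Cd22 at 90 min of IL-2 and at 4 hr of both. The B cell sum in CD8+ T cells went from 13.8 RPKM to between 4.20 and 5.90 and the myeloid sum from 44.7 to between 18.9 and 26.7. Erythroid markers summed to between 97.5 and 171 RPKM in all Treg libraries of replicate 3 and to at most 15.5 in all other libraries. The part of other cell types in the change of Dtx1 was not tested.

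**Figure D2:**
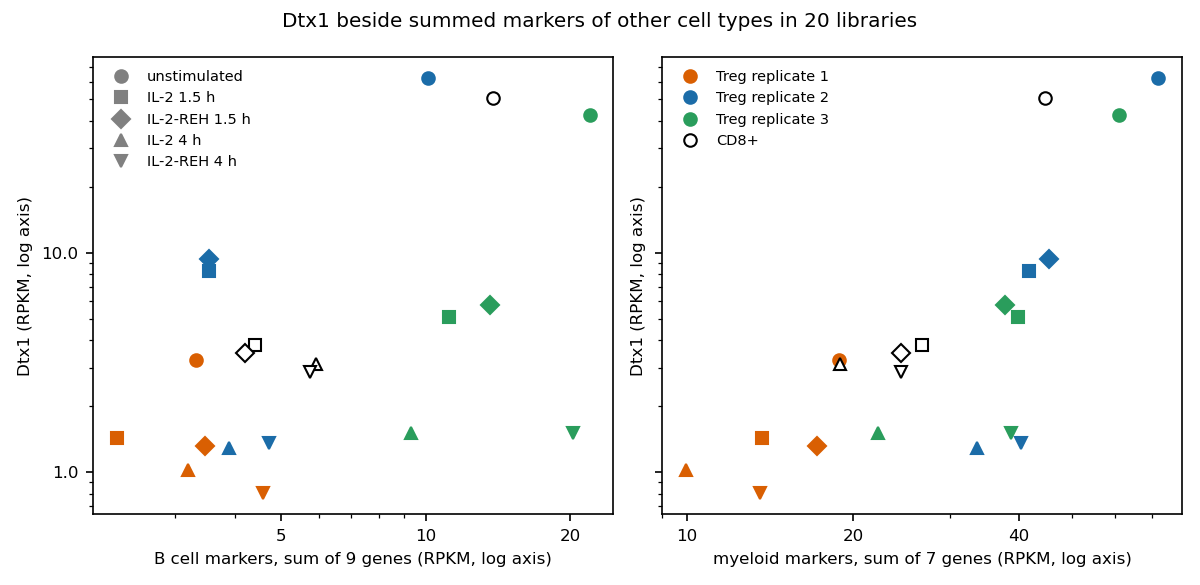
Dtx1 RPKM against the summed RPKM of 9 B cell markers (left) and 7 myeloid markers (right) in all 20 libraries, on log axes, with colours for Treg replicates, open symbols for CD8+ cells and shapes for conditions. From unstimulated to 4 hr of IL-2-REH, the B cell sum goes from 3.32 to 4.58 in replicate 1, from 10.1 to 4.72 in replicate 2 and from 22.0 to 20.3 in replicate 3, and Dtx1 is lower in all 3.

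Of the other Deltex genes, Dtx3 was lower after cytokine in every replicate and Dtx2 showed little change. Dtx3, which lacks the Notch-binding WWE domains of Dtx1, had 16.1, 34.4 and 29.6 RPKM in unstimulated Tregs of replicates 1 to 3. It had 12.1, 18.7 and 13.2 RPKM after 90 min of IL-2 and 11.4, 17.2 and 12.8 after 4 hr. With IL-2-REH it had 11.4, 19.8 and 15.2 RPKM at 90 min and 10.5, 17.3 and 19.9 at 4 hr. Every replicate was lower than its own unstimulated library in all 4 conditions, but the groups overlapped, and the log2 fold change at 4 hr of IL-2 was -0.86 ± 0.32 (SE, adjusted p = 0.18 from edgeR). With the block, Dtx3 passed at 4 hr of IL-2 (-0.82, adjusted p = 0.016 from edgeR) and of IL-2-REH (-0.71, adjusted p = 0.049 from edgeR). Without replicate 1, it passed with IL-2 at 90 min (-0.71, adjusted p = 0.045 from edgeR) and at 4 hr (-0.97, adjusted p = 0.017 from edgeR). The CD8+ level of Dtx3 went from 17.3 to 6.74 RPKM after IL-2 and 7.36 after IL-2-REH at 90 min, and was 7.35 and 8.23 at 4 hr.

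Dtx4 fell with IL-2 at 4 hr and had a higher level with IL-2-REH than with IL-2 in every pair. Its RPKM was 3.72, 2.81 and 3.36 in unstimulated Tregs and 0.847, 1.03 and 1.30 after 4 hr of IL-2, so these groups did not overlap. The log2 fold change was -1.58 ± 0.36 (SE, adjusted p = 0.036 from edgeR). Leaving out replicate 1 gave -1.28 (adjusted p = 0.058 from edgeR), and leaving out replicate 2 or 3 also ended the call (adjusted p = 0.44 and 0.10 from edgeR). After 4 hr of IL-2-REH, Dtx4 had 2.07, 2.15 and 2.76 RPKM, which is above all 3 IL-2 libraries and below all 3 unstimulated ones.

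IL-2-REH minus IL-2 for Dtx4 was 1.07 ± 0.35 (SE) on the log2 scale at 4 hr, higher in 3 of 3 pairs by 2.44-fold, 2.09-fold and 2.13-fold, but it did not pass the test over all genes (adjusted p = 1.0 from edgeR, approximate 95% interval 0.37 to 1.76). At 90 min, Dtx4 had 2.001, 2.09 and 3.40 RPKM after IL-2 and 3.22, 3.71 and 5.57 after IL-2-REH. The difference was 0.73 ± 0.35 (SE, adjusted p = 1.0 from edgeR), again higher with IL-2-REH in 3 of 3 pairs. The CD8+ level of Dtx4 was 1.22 RPKM without stimulation, 1.79 after IL-2 and 2.86 after IL-2-REH at 90 min, and 0.356 and 1.16 at 4 hr, from 139 and 486 reads. The 4 hr library with IL-2-REH was thus 3.27-fold above that with IL-2. From 90 min to 4 hr of IL-2, Dtx4 in Tregs was lower by a log2 fold change of -1.34 ± 0.36 (SE, adjusted p = 0.19 from edgeR), and it passed with the block (-1.30, adjusted p = 0.045 from edgeR). Dtx2 ranged from 6.77 to 11.1 RPKM over all 15 Treg libraries and from 4.68 to 8.02 over the CD8+ libraries, and its log2 fold changes in Tregs lay between -0.13 and 0.34. Without replicate 1, Dtx2 passed at 90 min of IL-2-REH (0.63, adjusted p = 0.035 from edgeR).

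Of the receptors, Notch2 rose with IL-2 in Tregs and Notch1 did not pass the test in any comparison. The RPKM of Notch2 was 10.4, 14.6 and 13.2 in unstimulated Tregs, 25.7, 22.6 and 24.3 after 90 min of IL-2, and 17.8, 41.7 and 42.1 after 4 hr. Neither IL-2 group overlapped the unstimulated one. The log2 fold change was 1.49 ± 0.31 (SE, adjusted p = 0.024 from edgeR) at 4 hr, and the call was lost without replicate 2 or 3 (adjusted p = 0.43 and 0.49 from edgeR). At 90 min it was 1.08 ± 0.30 (SE, adjusted p = 0.14 from edgeR), and Notch2 passed there with the block (1.08, adjusted p = 0.041 from edgeR) and without replicate 1 (1.07, adjusted p = 0.022 from edgeR).

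With IL-2-REH, Notch2 had 18.6, 19.5 and 19.97 RPKM at 90 min and 12.7, 25.8 and 13.9 at 4 hr. All 3 replicates at 90 min lay above all unstimulated libraries, whereas the groups overlapped at 4 hr. IL-2-REH minus IL-2 was -0.32 ± 0.30 (SE, adjusted p = 1.0 from edgeR) at 90 min and -1.05 ± 0.30 (SE, adjusted p = 0.80 from edgeR) at 4 hr, lower with IL-2-REH in 3 of 3 pairs at both times. The approximate 95% interval of the 4 hr difference ran from -1.64 to -0.45. Notch2 in CD8+ T cells stayed within 9.30 to 11.3 RPKM in all 5 libraries. Notch2 (NM_010928) lies on the plus strand of chromosome 3, from 98013538 to 98150367, and shares exon sequence with the annotated gene Gm42820 on the same strand, so some reads may belong to either.

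Notch1 had 13.1, 33.8 and 29.5 RPKM in unstimulated Tregs, and its 12 cytokine libraries ranged from 9.75 to 25.0 RPKM. In replicates 2 and 3, all cytokine libraries lay below the unstimulated one, while in replicate 1 the 90 min libraries lay above it, at 16.2 after IL-2 and 13.2 after IL-2-REH. Its log2 fold changes against unstimulated cells ran from -0.66 to -0.21, with adjusted p of at least 0.49 from edgeR. Its CD8+ levels ranged from 18.1 to 23.3 RPKM and were highest without stimulation. Exons of Notch1 overlap the annotated genes 0610009E02Rik and Gm13568 on the opposite strand, and since the use of strand in counting is not given in the sources used here, such reads cannot be told apart.

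Rbpj, the DNA-binding partner of the cleaved receptor, rose at 90 min of IL-2. Its RPKM was 17.4, 12.6 and 12.8 in unstimulated Tregs and 33.2, 28.7 and 36.3 after 90 min of IL-2, with no overlap. The log2 fold change was 1.33 ± 0.28 (SE, adjusted p = 0.039 from edgeR), and the fit with the block gave the same direction and call. The call was lost without replicate 2 or 3 (adjusted p = 0.97 and 0.58 from edgeR). After 90 min of IL-2-REH, Rbpj had 24.2, 24.6 and 28.8 RPKM, again above all unstimulated libraries, with a log2 fold change of 0.99 ± 0.27 (SE, adjusted p = 0.38 from edgeR) and, without replicate 1, of 1.36 (adjusted p = 0.025 from edgeR). At 4 hr the levels were 19.9, 27.8 and 14.5 RPKM after IL-2 and 16.0, 20.5 and 10.7 after IL-2-REH, and both groups overlapped the unstimulated one.

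The single CD8+ libraries ordered the 5 conditions for Rbpj as Treg replicates 1 and 3 did, with 9.74 RPKM without stimulation, 21.5 after IL-2 and 16.5 after IL-2-REH at 90 min, and 10.02 and 9.40 at 4 hr. Rbpj (NM_001277116) lies on the plus strand of chromosome 5, from 53555779 to 53657445, and its exons overlap those of no other gene. Of the windows of its 2 annotated starts in the table used, the more upstream one, chr5:53590096-53590395, is shown because Rbpj and Dtx2 were the only 2 of the 7 members with a window in the table that hold TGGGAA, the RBPJ motif. This start lies inside the annotated span of the Rbpj gene, whose 5′ end is far upstream. Where NM_001277116, the transcript counted here, itself starts was not looked up. The window is written from 250 bases before to 50 bases after the start, with both matches in capitals, and the second match reads TTCCCA because it lies on the opposite strand.
Rbpj: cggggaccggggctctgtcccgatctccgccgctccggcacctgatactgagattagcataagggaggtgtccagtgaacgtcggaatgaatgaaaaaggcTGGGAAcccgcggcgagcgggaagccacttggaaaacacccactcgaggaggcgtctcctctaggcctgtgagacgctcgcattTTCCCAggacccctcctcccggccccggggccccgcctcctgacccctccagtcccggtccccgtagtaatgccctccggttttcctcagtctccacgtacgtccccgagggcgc
The window also holds 3 matches of GGAAA and none of TTCNNNGAA or TGTTTAC. Dtx2 holds TGGGAA, TTCNNNGAA and GGAAA once each, and Nrarp, Notch2 and Maml1 hold only GGAAA. A match is a run of letters and was not tied to the RNA levels.

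Maml1, a coactivator of the Mastermind family, had 13.2, 13.5 and 10.7 RPKM in unstimulated Tregs and 16.0, 17.5 and 16.0 after 90 min of IL-2, so these groups did not overlap, but the log2 fold change was 0.55 ± 0.23 (SE, adjusted p = 0.31 from edgeR). With IL-2-REH it had 14.4, 18.7 and 17.4 RPKM at 90 min. Without replicate 1, Maml1 passed at 90 min with IL-2 (0.78, adjusted p = 0.046 from edgeR) and with IL-2-REH (0.87, adjusted p = 0.034 from edgeR). At 4 hr it was back to between 9.90 and 16.9 RPKM, and in CD8+ T cells it ranged from 8.64 to 11.99 RPKM.

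Of the target genes besides Dtx1, Nrarp, which encodes a small feedback inhibitor of the receptor complex, was the member with the widest change in CD8+ T cells besides Dtx1. Its level in CD8+ T cells was 1.73 RPKM without stimulation (274 reads), 11.3 after IL-2 (2019 reads) and 6.95 after IL-2-REH (1115 reads) at 90 min, and 2.85 and 1.73 at 4 hr. The 90 min level was thus 6.51-fold (IL-2) and 4.02-fold (IL-2-REH) above the unstimulated library. Over all 15 Treg libraries, Nrarp ranged from 1.05 to 2.79 RPKM. At 90 min these libraries had 2.08, 2.17 and 1.95 RPKM after IL-2 and 2.08, 2.79 and 2.54 after IL-2-REH, against 2.07, 1.32 and 1.87 without stimulation. The IL-2 group overlapped the unstimulated one and the IL-2-REH group lay just above it. The log2 fold changes were 0.35 ± 0.29 (SE, adjusted p = 0.63 from edgeR) and 0.62 ± 0.29 (SE, adjusted p = 0.44 from edgeR), the latter passing without replicate 1 (1.005, adjusted p = 0.037 from edgeR). The difference between the cell types was not tested. Exons of Nrarp overlap Gm38287 and those of Maml1 overlap Gm26542, both on the opposite strand.

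Hes1, a transcriptional repressor and a common Notch target, had few reads, 3 to 74 in a library, and at most 0.699 RPKM. In unstimulated Tregs it had 12, 74 and 52 reads, and at 4 hr 9, 12 and 12 after IL-2 and 3, 27 and 15 after IL-2-REH. The log2 fold changes were -1.44 ± 0.88 (SE) and -1.40 ± 0.87 (SE) at 4 hr (adjusted p = 0.42 and 0.52 from edgeR). The unstimulated libraries differed among themselves by up to 5.25-fold (replicate 2 over replicate 1). In replicate 2, the exact Poisson 95% interval went from 0.549 to 0.878 RPKM without stimulation to 0.0481 to 0.163 at 4 hr of IL-2, which do not overlap, whereas in replicate 1 the intervals overlapped. These intervals cover counting error only.

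**Figure D3:**
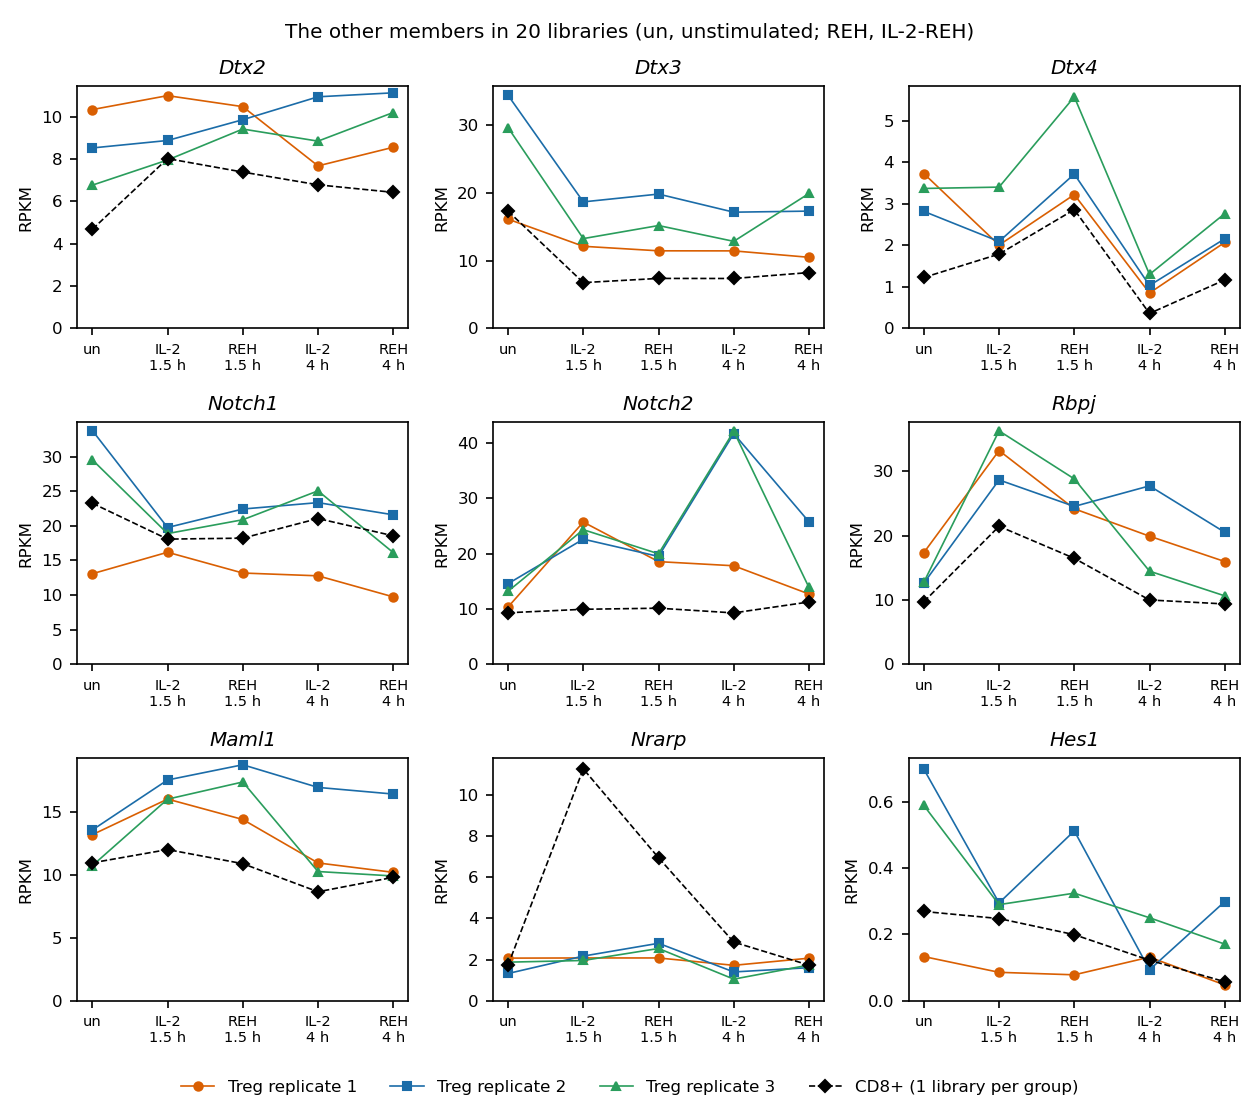
RPKM of the other 9 genes in every library, with linear axes from 0, a line for each Treg replicate and a dashed line for the CD8+ libraries. Rbpj is higher at 90 min than before in all 3 Treg replicates and in CD8+ cells, Notch2 reaches 41.7 and 42.1 RPKM in 2 Treg libraries at 4 hr of IL-2 and is at most 11.3 in CD8+ cells, and Nrarp reaches 11.3 RPKM only in CD8+ cells at 90 min of IL-2.

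Counted over the 10 genes, 1 passed the test at 90 min of IL-2 (Rbpj, higher), against 0.853% of all genes tested. At 4 hr of IL-2, 3 passed (Notch2 higher, Dtx1 and Dtx4 lower), against 2.27% of all genes, and Dtx1 among them was chosen from this comparison. In the counts that follow, a call of Dtx1 against unstimulated cells or at 4 hr of IL-2 shares libraries with that choice and is no independent result. None passed with IL-2-REH at 90 min (0.0933% of all genes) or 4 hr (0.313%). There edgeR gave 4 and 2 of the 10 an unadjusted p under 0.05, beside 1704 and 1998 of 15009 genes. DESeq2 called 0 and 1 of the 10, beside 113 and 565 of 15009 genes. The limma fit called 0 and 0, beside 0 and 25 of 10473 genes. With the block, 3 passed at 90 min of IL-2 (Notch2, Rbpj and Dtx1, beside 1.83% of all genes), 4 at 4 hr of IL-2 (Notch2, Dtx1, Dtx3 and Dtx4, beside 6.92%), 2 at 4 hr of IL-2-REH (Dtx1 and Dtx3, beside 3.03%) and 1 between 90 min and 4 hr of IL-2 (Dtx4, beside 0.386%). Without replicate 1, which left 2 libraries a group, 5, 5, 3 and 1 passed in the comparisons with unstimulated cells, in the order IL-2 and IL-2-REH at 90 min and IL-2 and IL-2-REH at 4 hr. The shares of all genes called then were 17.3%, 15.7%, 13.4% and 10.7%. Without replicate 2 or without replicate 3, none of the 10 passed in any of these comparisons, where at most 11 of all genes did. An unadjusted p under 0.05 was given to 1 to 4 of the 10, beside 213 to 1316 of the 15197 or 15309 genes tested. The 4 comparisons share their unstimulated libraries.

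Between the cytokines, edgeR called none of the 10 genes at 90 min (0.0133% of all genes) or at 4 hr (0.0267%), and none passed for the change of that difference over time (0% of all genes). Unadjusted p-values under 0.05 were given to 0 of the 10 at 90 min, 2 at 4 hr and 0 for the change over time, beside 149, 558 and 47 of 15009 genes. DESeq2 called none of the 10 either, beside 15, 58 and 0 of all genes, and limma called no gene at all. With the block, which pairs the libraries, edgeR also called none of the 10 at 90 min or 4 hr, beside 2 and 10 of 15009 genes. It gave 1 and 3 of the 10 an unadjusted p under 0.05, beside 263 and 931 of all genes. Between 90 min and 4 hr, none of the 10 passed with IL-2 (0%) or IL-2-REH (0%). An unadjusted p under 0.05 from edgeR was given to 4 of the 10 in each case, beside 2551 and 2188 of 15009 genes. DESeq2 called 1 with IL-2 (Dtx4) and 0 with IL-2-REH, beside 382 and 251 of 15009 genes. The limma fit called 0 in both, beside 3 and 0 of 10473 genes. Without replicate 1, Dtx1 alone passed in each (4.32% and 3.96% of all genes). The median log2 fold change of the 10 genes against unstimulated cells stood at -0.01 after IL-2 and 0.41 after IL-2-REH at 90 min, and -0.25 and -0.29 at 4 hr, beside medians over all genes of -0.06, -0.05, 0.00 and 0.01. These medians include Dtx1, which was chosen from such a comparison. With Dtx1 left out, they were 0.23, 0.49, -0.21 and -0.06 in the same order. From 90 min to 4 hr, the median of the 10 genes was -0.55 after IL-2 and -0.62 after IL-2-REH, beside 0.03 and 0.04 over all genes. With Dtx1 left out, it was -0.48 and -0.60.

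**Figure D4:**
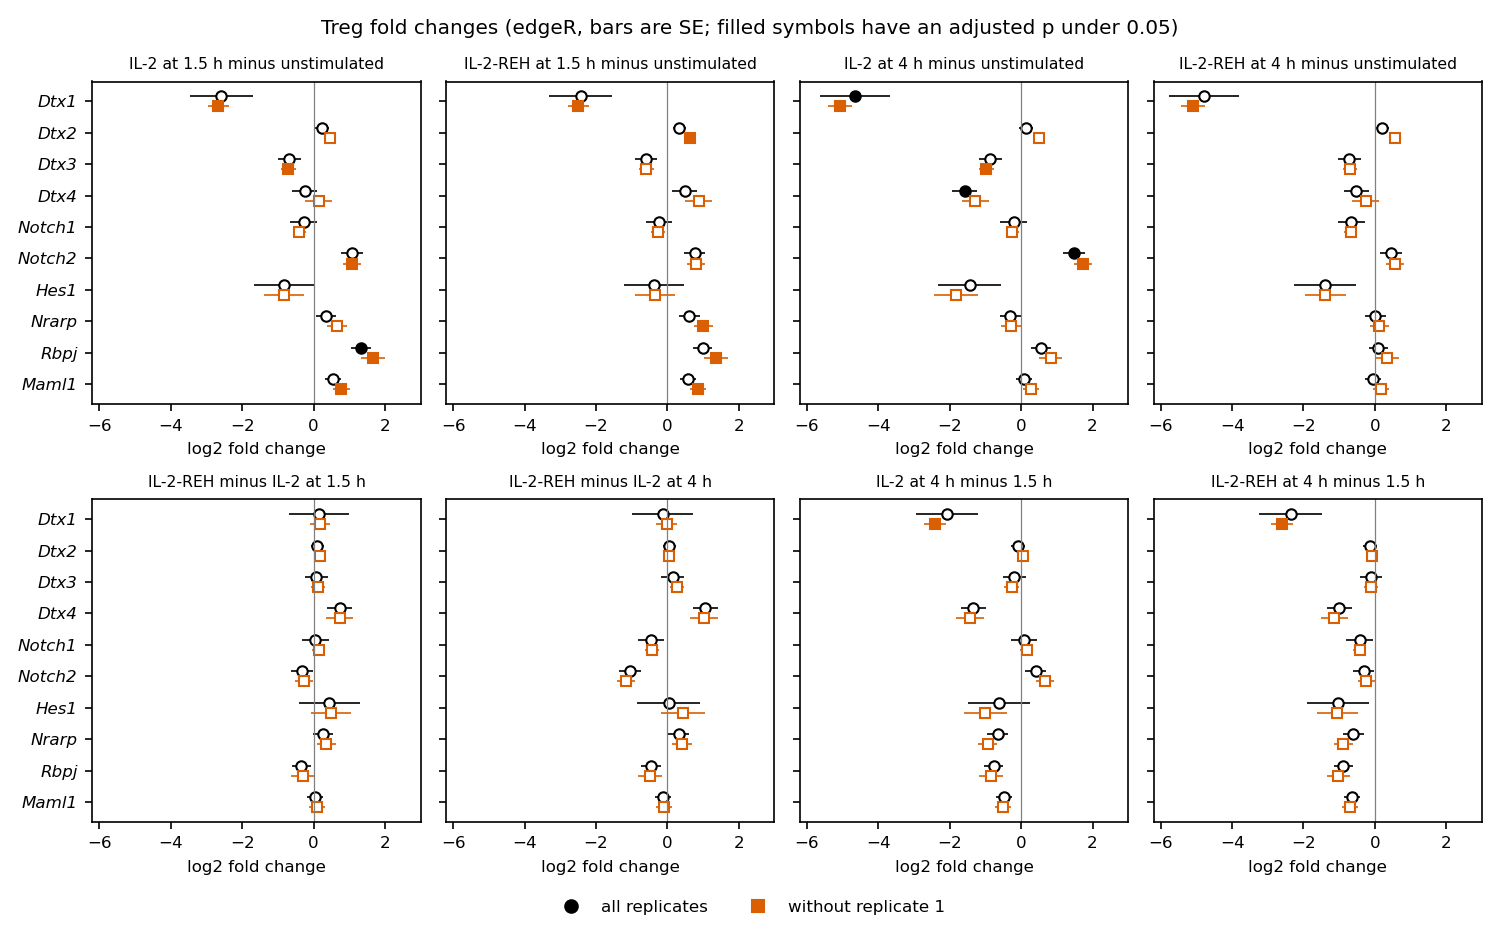
Log2 fold changes of the 10 genes in Tregs from edgeR, with all replicates (black circles) and without replicate 1 (orange squares), bars of 1 SE, and filled symbols at an adjusted p under 0.05. With all replicates, 4 symbols are filled, Rbpj at 90 min of IL-2 and Dtx1, Dtx4 and Notch2 at 4 hr of IL-2, and without replicate 1 Dtx1 is filled in every comparison except the 2 between the cytokines.

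In CD8+ T cells, log2 ratios of RPKM + 1 were taken between single libraries over 10021 genes, which include all members but Hes1, and an absolute value above 2 was counted, with no test. Dtx1 was past it in all 4 comparisons with the unstimulated library, at -3.42 after IL-2 and -3.52 after IL-2-REH at 90 min and at -3.65 and -3.74 at 4 hr, which all share that library and of which the last 2 chose the gene. Nrarp was past it at 90 min of IL-2, at 2.17, and had 1.54 with IL-2-REH. Of all genes, 0.489% and 0.559% were past it at 90 min with IL-2 and IL-2-REH, and 0.539% and 0.599% at 4 hr. No member was past it between the cytokines at 90 min (0.0699% of all genes) or 4 hr (0.289%), or between the times with IL-2 (0.0798%) or IL-2-REH (0.0499%). From 90 min to 4 hr of IL-2, the ratio was -1.67 for Nrarp and -1.04 for Dtx4. Dtx4, the lower of these genes, depends on the pseudocount: its RPKM went down 5.02-fold in that step and that of Nrarp 3.96-fold, and with a pseudocount of 0.1 Dtx4 was past 2.

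Across cell types, with all conditions pooled, the levels of all 10 members overlapped between the 15 Treg and the 5 CD8+ libraries. Of all genes with enough reads, 7.24% were higher in every Treg than in every CD8+ library and 2.74% the reverse. Within each of the 5 conditions, every Treg library lay above the CD8+ library for Notch2, Rbpj and Dtx4. This is a looser rule than the pooled one. The share of all genes that meet it was not counted, so it is given as a description. In unstimulated cells, the lowest Treg level was 10.4 against 9.33 RPKM for Notch2, 12.6 against 9.74 for Rbpj and 2.81 against 1.22 for Dtx4. No other member did so in all 5 conditions, and none lay below in all 5. These differences were not tested, since the CD8+ libraries have no replicates. The order of the members depends on the condition, and Dtx1 had the highest mean of the 10 in unstimulated Tregs, 36.1 ± 30.2 RPKM (SD, n = 3), ahead of Dtx3 with 26.7 ± 9.49 and Notch1 with 25.5 ± 10.9, which do not differ beyond their spread. It was also the highest in unstimulated CD8+ T cells, with 50.6 RPKM. By median RPKM over all conditions, the order in Tregs was Rbpj (20.5), Notch1 (19.8), Notch2 (19.5), Dtx3 (16.1), Maml1 (14.4), Dtx2 (9.42), Dtx4 (2.76), Nrarp (1.95), Dtx1 (1.51) and Hes1 (0.25). The CD8+ order was Notch1 (18.6), Maml1 (10.9), Rbpj (10.02), Notch2 (9.95), Dtx3 (7.36), Dtx2 (6.78), Dtx1 (3.50), Nrarp (2.85), Dtx4 (1.22) and Hes1 (0.20). In Tregs, the ranges of neighbours in this order overlapped except for Dtx2 over Dtx4, where the lowest Dtx2 level was 6.77 and the highest Dtx4 level 5.57, and Dtx1 over Hes1, with 0.802 and 0.699. In CD8+ T cells they overlapped except for Notch1 over Maml1, where the lowest Notch1 level was 18.1 and the highest Maml1 level 11.99, and Dtx4 over Hes1, with 0.356 and 0.269.

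Other genes of the pathway were looked at by list. With all replicates and no block, 0.853% of all genes were called at 90 min of IL-2 and 2.27% at 4 hr. The counts of the lists below stand beside these shares. Of 7 other receptors and ligands, 1 passed in Tregs, the receptor gene Notch3 at 4 hr of IL-2, with a log2 fold change of 2.98 ± 0.68 (SE, adjusted p = 0.037 from edgeR) but a level of at most 0.452 RPKM. Among genes of receptor processing and glycosylation, Furin rose at 90 min of IL-2. This protease, which cleaves the receptor precursor, went from 19.7, 15.1 and 13.2 RPKM to 38.6, 60.7 and 49.3 (log2 fold change 1.77 ± 0.36, SE, adjusted p = 0.034 from edgeR). The groups did not overlap. In the single CD8+ libraries, Furin went from 11.4 to 30.7 RPKM in the same comparison. With all replicates, Furin did not pass at 4 hr. Without replicate 1, it passed in all 4 comparisons with unstimulated cells, and Mfng, a glycosyltransferase of the Fringe family, was lower at 90 min and 4 hr of IL-2 (adjusted p = 0.029 and 0.039 from edgeR). With the block, Aph1b was lower at 4 hr of IL-2 (adjusted p = 0.037 from edgeR), at a mean of 0.156 RPKM over the Treg libraries.

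Of 9 trafficking and ubiquitin regulators, 1 passed, Numb at 4 hr of IL-2, an adaptor that inhibits Notch (0.53 ± 0.13, SE, adjusted p = 0.047 from edgeR), from 7.14, 8.50 and 7.88 RPKM to 9.96, 12.8 and 9.69 without overlap. With the block, the kinase gene Aak1 was lower in the same comparison (adjusted p = 0.034 from edgeR). Without replicate 1, Numbl was lower at 90 min of both cytokines and Nedd4 at 90 min of IL-2 and at 4 hr of both. None of the 15 nuclear cofactors passed in any comparison with unstimulated cells in this fit, and of the most abundant, Hdac1, Ctbp1 and Snw1, the log2 fold changes lay between -0.10 and 0.30. With the block, Tle3, a corepressor, was lower at 4 hr of IL-2-REH (adjusted p = 0.024 from edgeR). Of 12 target genes, 11 were tested, of which Hey1 fell at 4 hr of IL-2 (-2.97 ± 0.52, SE, adjusted p = 0.010 from edgeR) and Il2ra, the alpha chain of the IL-2 receptor, rose (1.15 ± 0.27, SE, adjusted p = 0.041 from edgeR). Il2ra went from 62.7, 117 and 91.5 RPKM to 197, 282 and 101, groups that overlapped, and the call was lost without replicate 1 (adjusted p = 0.11 from edgeR). Hey1, a repressor related to Hes1, had 8.74, 1.75 and 6.71 RPKM without stimulation and 0.557, 0.649 and 0.988 after 4 hr of IL-2, which did not overlap. After 4 hr of IL-2-REH, Hey1 had 0.977, 1.27 and 1.05 RPKM, also below all unstimulated libraries (-2.46 ± 0.51, SE, adjusted p = 0.061 from edgeR), and it passed with the block (adjusted p = 0.019 from edgeR), as did Bcl11b, which was lower. In the fit with the block, Myc was also called higher at 90 min and 4 hr of IL-2 and Tcf7 lower at 4 hr of IL-2.

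Of 14 genes linked to NFAT and anergy, a list to which Dtx1 is usually added, Lag3 was the only one that passed, lower at 4 hr of IL-2 (-1.74 ± 0.38, SE, adjusted p = 0.031 from edgeR). This inhibitory receptor had 7.78, 15.1 and 13.6 RPKM in unstimulated Tregs, 2.06, 3.50 and 4.58 after IL-2 and 2.67, 3.78 and 4.78 after IL-2-REH at 4 hr. The IL-2-REH value (-1.66 ± 0.38, SE, adjusted p = 0.084 from edgeR) passed with the block (adjusted p = 0.0012 from edgeR), together with lower Nfatc1 and Ikzf1. Without replicate 1, 5 of the 14 were called higher and 1 lower at 90 min of each cytokine, beside 17.3% and 15.7% of all genes, and 3 higher and 4 lower at 4 hr of each, beside 13.4% and 10.7%. The medians of the list over all replicates were -0.52 after IL-2 and -0.43 after IL-2-REH at 4 hr, beside 0.00 and 0.01 over all genes.

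The genes whose levels ran most like Dtx1 over the 15 Treg libraries were ranked by Pearson correlation of log2(RPKM + 1) among 10472 genes whose mean over these libraries reached 1 RPKM. They were Vcam1 (r = 0.98), Ptprv (r = 0.98), Slc40a1 (r = 0.98), Eya2 (r = 0.98) and Tm6sf1 (r = 0.97), and those most opposed were Zbtb42 (r = -0.95), Rnf157 (r = -0.95), Tnfrsf9 (r = -0.95), Rpap3 (r = -0.92) and Aktip (r = -0.91). Vcam1, an adhesion molecule, had 0.933, 10.7 and 6.77 RPKM in unstimulated Tregs and at most 0.629 at 4 hr. Tnfrsf9, an activation-induced costimulatory receptor, had 271, 55.7 and 48.7 RPKM in unstimulated Tregs and between 252 and 477 at 4 hr, so its level in the unstimulated library of replicate 1 lay within the range of the 4 hr libraries. These correlations describe libraries that share groups and replicates. Without the unstimulated libraries 2 and 3, which lie farthest out, they ranged from 0.92 to 0.97 and from -0.91 to -0.78. Among the members, Dtx3 (r = 0.85, rank 190) and Notch1 (r = 0.71) were the most like Dtx1 over all 15 libraries. Without those 2 libraries the order changed, with Maml1 (r = 0.64), Nrarp (r = 0.63) and Dtx4 (r = 0.60) above Dtx3 (r = 0.54), Rbpj (r = 0.45) and Notch1 (r = 0.42).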

How the data were processed

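RNA-seq of 15 Treg and 5 CD8+ T cell libraries was used. The authors mapped single-end 50 bp reads to mm10 with TopHat2 2.1.1 and Bowtie2 2.2.6, per the study's methods and processing notes, and deposited raw counts of unique reads on the exons of 31682 RefSeq transcripts. RPKM values were deposited by the authors with these counts. The use of strand and the pooling of animals are not given in the sources used here. No pair of libraries was identical (0 pairs).

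Counts were tested with edgeR 4.0.16 in R 4.3.3 (TMM, filterByExpr, glmQLFit, glmQLFTest, 1 mean per group), and genes were called at a Benjamini-Hochberg adjusted p under 0.05. Alternatives were DESeq2 1.42.0, a block for the replicate number, limma 3.58.1 on log2(RPKM + 1) for genes whose mean reached 1 RPKM, no filter, the longest transcript and leaving out replicates. Replicate numbers come from the sample titles. Across genes, deviations from group means of same-numbered libraries correlated in all 30 pairs (mean 0.538, lowest 0.121), so the numbers were taken to pair the libraries in the fit with the block. The mean for different numbers was -0.257, which is no separate evidence, since deviations from the mean cancel out within a group. The fit with 1 mean per group leaves this pairing out. CD8+ libraries, 1 per group, were compared by log2 ratios of RPKM + 1. The pseudocount of 1 understates changes of low genes. A correlation with Dtx1 over the 5 CD8+ libraries had been planned and was left out, since 5 points are too few. Simulated counts were used to test the edgeR fit. Approximate intervals of fold changes come from the SE.

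Members, gene lists, motifs and the rule for named genes were chosen with earlier results of these data known. The rule named all members, the pathway genes that passed in a comparison with unstimulated cells or, in lists without one, the 3 most abundant, and the 5 genes most and least like Dtx1. Genes that passed only with the block were named after their values were seen. A result of the receptor processing list is not reported here. Promoter windows were found for 7 of the 10 symbols in RefSeq's table for GRCm38.p6, and none was at hand for Dtx3, Dtx4 and Hes1. Exon overlaps came from GENCODE M21. Figures were drawn with matplotlib 3.10.9 in Python 3.11.15.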

Additional observations from a re-analysis of the deposited data

Results flagged for a closer look

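For 6 of the genes, all 3 same-numbered Treg pairs moved in one direction and the CD8+ pair in the other, in log2 ratios of RPKM + 1. None of these differences between the cell types was tested, because each CD8+ group is 1 library. Only the direction was used, with no lower limit on size. Some of the CD8+ ratios thus showed almost no change, such as -0.0036 for Notch2 and -0.0082 for Maml1 in comparisons with unstimulated cells. The share of all genes that meet this rule was not counted. The number of genes is therefore a description and does not set this pathway apart from other genes. The widest gaps were in Notch2. At 4 hr of IL-2 against unstimulated cells, its Treg pairs ranged from 0.73 to 1.60 and the CD8+ ratio was -0.0036. The CD8+ levels were 9.33 RPKM without stimulation and 9.30 after IL-2, with overlapping Poisson intervals. For IL-2-REH minus IL-2, its Treg pairs ranged from -1.53 to -0.46 at 4 hr beside 0.25 in CD8+ T cells, and from -0.45 to -0.20 at 90 min beside 0.026. For the same difference at 4 hr, Nrarp had 0.12 to 0.42 in Tregs and -0.5 in CD8+ T cells, Dtx2 had 0.02 to 0.19 and -0.067, and Maml1 had -0.09 to -0.04 and 0.16. Maml1 also had 0.12 to 0.65 and -0.0082 at 90 min of IL-2-REH against unstimulated cells. From 90 min to 4 hr, Dtx3 had -0.12 to -0.04 and 0.11 with IL-2, and Notch1 had -0.40 to -0.05 and 0.025 with IL-2-REH.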

How the results depend on the processing

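The number of the 10 genes called in Tregs depended most on the replicates. Leaving out the libraries of 1 replicate, or the unstimulated library of replicate 1 alone (chosen after its values were seen), gave 0 to 5 called genes at 90 min of IL-2 and 0 to 5 at 90 min of IL-2-REH. It gave 0 to 3 at 4 hr of IL-2, 0 to 1 at 4 hr of IL-2-REH, and 0 to 1 between 90 min and 4 hr of IL-2 and of IL-2-REH. Without that unstimulated library alone, 1997 and 1874 of 15494 genes were called at 90 min of IL-2 and of IL-2-REH. At 4 hr, 1374 and 1073 were. The pairing by replicate number, taken as a block, gave 3 called genes in place of 1 at 90 min of IL-2, 2 in place of 0 at 4 hr of IL-2-REH and 1 in place of 0 between the times with IL-2, and beside the calls named above it changed no other call of a member. DESeq2 gave 2, 1 and 1 in these comparisons, beside 553, 565 and 382 of 15009 genes. No filter on low counts gave 1 at 4 hr of IL-2-REH, beside 52 of 20231 genes. At a threshold of 1 in place of 2, 5 members were past it in CD8+ T cells in place of 2, with the 8 comparisons pooled. The pooled count over all genes was not made. At 90 min of IL-2, 282 of 10021 genes were past 1 as higher and 444 as lower, beside 2 and 2 of the members. With a pseudocount of 0.1, 3 members were past 2. The added one was Dtx4, lower from 90 min to 4 hr of IL-2, where 33 of 10021 genes were past 2 as lower. Over all 10 genes and 8 comparisons, the sign of the fold change differed in 7 of 80 without replicate 2, 4 without replicate 3, 3 without replicate 1, 1 with the block, 1 without the unstimulated library of replicate 1, and 2 of 72 with limma. For Dtx1 and the pairs of gene and comparison called with all replicates, with the block or without replicate 1, 189 alternative values kept their direction, and the call with all replicates held in 152 of them, was gained in 28 and was lost in 9, the lost ones all when a replicate was left out. With 1 CD8+ library per group, the error between replicates cannot be estimated for these cells.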
